A study of Mus musculus with 26 samples.

Results

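Respiratory complex I genes were examined in 4T1 mouse mammary tumor cells with and without MaTAR25, a nuclear long non-coding RNA. The members are the 46 protein-coding genes whose symbol starts with Nduf, of the 45318 genes in the count files. Of these, 36 encode subunits of the enzyme, 8 encode assembly factors (Ndufaf1 to Ndufaf8), and 2 carry the name without being complex I subunits or assembly factors (Ndufa4 and Ndufa4l2). In MaTAR25 KO cells 15 of the 36 subunit genes and 2 of the 8 assembly factors were higher than in control cells and none of either was lower, where 11.9% of all genes tested were higher and 10.7% lower. Ndufa4 had the largest rise, a 2.92-fold difference of the mean levels. Another 4 genes with an Nduf symbol are annotated as processed pseudogenes, had at most 5 counts in any library and are not members.

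Complex I, NADH:ubiquinone oxidoreductase, is the entry point of electrons from NADH into the mitochondrial respiratory chain. Electrons enter at the N module, which binds NADH, pass through iron-sulfur clusters to the Q module, which reduces ubiquinone, and drive proton pumping by the P module in the inner membrane. Core subunits carry the catalysis and are conserved from bacteria, accessory subunits surround them, and assembly factors help to build the enzyme but are absent from the finished complex. The core subunits of the membrane arm are encoded by mitochondrial DNA, so the enzyme needs products of both genomes.

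Single-end sequencing of polyadenylated RNA gave 9 libraries. The 2 control libraries came from 4T1 cells of BALB/c origin, labelled wild type, and the study's controls received a guide RNA against Renilla luciferase and were grown from single cells too. The 3 KO1 and 4 KO2 libraries came from a pair of single-cell clones labelled MaTAR25-/-, in which CRISPR/Cas9 with paired guides had deleted sequence over the transcription start site. All cells were grown in DMEM with fetal bovine serum. Each KO group is 1 clone, and the labels do not say whether replicates of a group were separate cultures, so the p-values measure only the spread between these libraries.

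The libraries held 25367211 to 61110585 counts on genes. The gene of MaTAR25, 1200007C13Rik, was counted 35 and 30 times in control cells, against 2, 7 and 0 times in KO1 and 11, 1, 9 and 6 times in KO2. This count covers the whole gene, of which only the start was deleted. Of all counts, 24.1% in both control libraries and 25.2 to 27.5% in the KO libraries were not uniquely mapped, and the part of this difference in the results was not tested. Mitochondrially encoded genes took 0.980 to 1.72% of the gene counts, most in KO2 replicate 3. The epithelial markers Epcam and Krt18 were at 104 to 488 and 540.1 to 1412 CPM (normalised read counts, scaled to library size with TMM factors), and KO2 replicate 2 had the lowest Epcam. Summed over the 6 epithelial markers the level was 3699 to 3897 CPM in control, 5134 to 7301 CPM in KO1 and 2134 to 4503 CPM in KO2. Between KO and control cells Cdh1 alone passed the test, being lower, with 759 and 939.5 CPM in control and 354 to 669.6 CPM in KO (adjusted p = 0.0684, edgeR). Against control, Krt7 (log2 fold change 1.89, adjusted p = 0.00468, edgeR) and Krt8 (1.32, adjusted p = 0.0232, edgeR) were higher in KO1. In KO2 Cdh1 was lower than in control (-0.85, adjusted p = 0.0105, edgeR). The summed levels of 6 immune and 5 endothelial markers were at most 1.02 and 1.77 CPM, and those of 5 fibroblast markers 13.3 to 49.3 CPM, with Dcn, Lum and Col3a1 at 0 in every library. Postn fell from 26.8 and 31.2 CPM in control to 0.0558 to 7.30 CPM in KO (adjusted p = 0.0271, edgeR). Pdgfra had 21.8 and 17.7 CPM in control and 11.7 to 46.9 CPM in KO and did not pass (adjusted p = 0.390, edgeR). Cdh5 was higher in KO2 than in control, at 0.0905 to 1.39 CPM against 0.0220 and 0 CPM (adjusted p = 0.0317, edgeR). The part of these markers in the results was not tested. Bulk libraries cannot tell fewer cells of a kind from less RNA per cell.

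In control cells the subunits spanned a wide range of levels per length. Per kilobase of exon, the mean level of the 36 subunits ran from 1.04 to 322 CPM with a median of 41.3, and that of the 8 assembly factors from 4.88 to 20.6 CPM with a median of 9.68. Ndufb9, a distal P module subunit, had the highest level per kilobase (322 CPM), followed by Ndufa4 (161 CPM) and Ndufa7 (116 CPM). At the low end stood Ndufb2 (1.04 CPM per kilobase) and Ndufb4 (1.31 CPM per kilobase). Ndufa4l2 was almost silent, with 0.110 and 0.0915 CPM in control, 0, 0.0332 and 0 CPM in KO1 and 0, 0.0421, 0 and 0.0204 CPM in KO2, and it was not tested. Levels across genes also depend on how much of a transcript can be mapped uniquely. Of the 50-base stretches of the Ndufb4 mRNA, 41.3% also occurred elsewhere in the genome, and the shares were 43.0% for Ndufs3 and 42.2% for Ndufs5, so the counts of these genes are uncertain. In all, 8 of the 46 members had more than 10% of such stretches, and 27 had none.

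**Figure D1:**
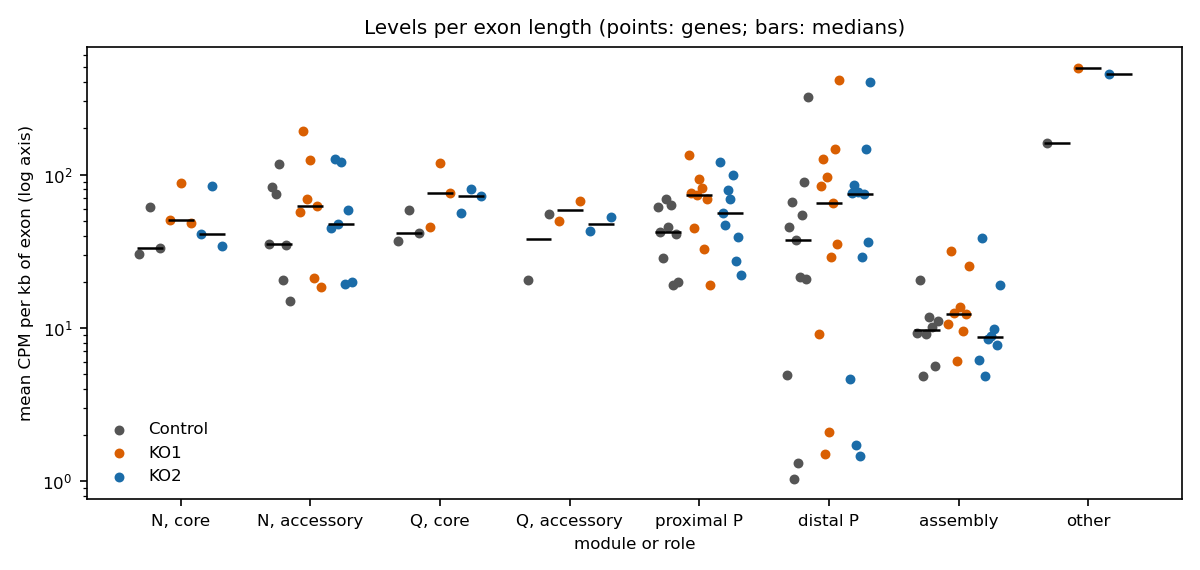
Mean level of the members shown in CPM per kilobase of exon (log axis) by module or role, in control, KO1 and KO2 cells. Each point is a gene, short bars are medians, and Ndufa4l2 is left out. The assembly factors lie at 4.88 to 20.6 CPM per kilobase in control cells, below the subunit median of 41.3.

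The promoters of the members were compared with others because many members moved together. RefSeq windows on GRCm38.p6, from 250 bases before to 50 after the transcript start, were given for 40 of the 46 members (42 windows). Both strands were searched for the core letters of factors linked to nuclear-encoded respiratory genes: GCATGCGC (NRF1), CCGGAAGT (ETS factors such as GABPA), AAGATGGCG (YY1) and TCAAGGTCA (estrogen-related receptors). AAGATGGCG was in 6 of the 42 windows (14.3%), against 2.93% of the windows of protein-coding genes tested and 1.40% of all 32851 windows. Every one of these 6 matches lay on the strand of the gene and after its start, and a match anywhere after the start on that strand was in 1.54% of the windows of protein-coding genes tested. In the members its first base lay 10 to 35 bases after the start. These letters contain an ATG, and whether it is a start codon was not examined. GCATGCGC was in 5 windows (11.9%, against 5.08% and 2.71%), CCGGAAGT in 1 window (2.38%, against 7.98% and 3.89%) and TCAAGGTCA in none (against 0.285% and 0.423%). The following 5 windows, read 5′ to 3′, are shown because they belong to subunits and to an assembly factor and hold a match, in capitals, to AAGATGGCG (the first 4) or to GCATGCGC on both strands (the last).
Ndufs6, chr13:73328433-73328732, minus strand: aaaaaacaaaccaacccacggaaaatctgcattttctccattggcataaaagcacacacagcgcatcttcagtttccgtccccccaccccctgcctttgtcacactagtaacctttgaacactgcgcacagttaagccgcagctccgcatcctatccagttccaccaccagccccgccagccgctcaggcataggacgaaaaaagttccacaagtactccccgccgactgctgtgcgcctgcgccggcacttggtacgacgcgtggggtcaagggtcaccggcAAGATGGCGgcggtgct
Ndufs7, chr10:80249199-80249498, plus strand: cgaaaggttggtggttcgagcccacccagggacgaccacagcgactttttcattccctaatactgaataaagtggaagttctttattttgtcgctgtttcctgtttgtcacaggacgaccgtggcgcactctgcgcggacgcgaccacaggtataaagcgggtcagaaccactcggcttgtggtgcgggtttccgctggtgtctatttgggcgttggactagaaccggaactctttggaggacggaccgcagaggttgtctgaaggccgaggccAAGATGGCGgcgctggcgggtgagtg
Ndufaf8, chr11:120098684-120098983, plus strand: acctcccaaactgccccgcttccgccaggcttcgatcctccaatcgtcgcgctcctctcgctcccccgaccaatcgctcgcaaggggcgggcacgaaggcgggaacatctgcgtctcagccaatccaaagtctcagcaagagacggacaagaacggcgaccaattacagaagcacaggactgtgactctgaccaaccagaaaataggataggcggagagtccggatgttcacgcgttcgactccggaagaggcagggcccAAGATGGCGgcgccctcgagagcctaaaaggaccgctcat
Ndufs4, chr13:114388045-114388344, minus strand: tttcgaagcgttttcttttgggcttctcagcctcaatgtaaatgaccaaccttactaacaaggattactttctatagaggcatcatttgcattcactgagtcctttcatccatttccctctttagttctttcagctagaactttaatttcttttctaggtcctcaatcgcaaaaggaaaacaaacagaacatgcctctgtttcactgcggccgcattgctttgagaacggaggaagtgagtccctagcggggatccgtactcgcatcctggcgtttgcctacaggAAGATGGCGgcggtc
Ndufa11, chr17:56717512-56717811, plus strand: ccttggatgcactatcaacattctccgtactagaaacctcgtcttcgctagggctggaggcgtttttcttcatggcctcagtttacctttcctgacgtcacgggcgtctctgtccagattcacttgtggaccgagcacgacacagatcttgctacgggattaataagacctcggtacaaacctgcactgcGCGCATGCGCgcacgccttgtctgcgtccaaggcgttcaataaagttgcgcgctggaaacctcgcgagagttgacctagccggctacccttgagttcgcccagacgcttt
Of these 5 genes, Ndufs6, Ndufaf8 and Ndufa11 were higher in KO cells, Ndufs7 did not pass the threshold, and Ndufs4 had one of the smallest changes of all members. A match therefore stood beside members that rose and members that did not, and it is a description of the letters, not of binding.

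Members also shared their starts with other genes. Of the 45 members tested, 21 (46.7%) had the start of another protein-coding gene on the opposite strand within 1000 bases, against 16.5% of the 12542 protein-coding genes tested. Of the 19 partner genes that could be tested between KO and control cells, 1 was higher (Mrpl36, whose start lies 29 bases from that of Ndufs6) and 1 was lower (Tatdn1, beside Ndufb9). Of all genes tested, 11.9% were higher and 10.7% lower. The median log2 fold change of the partners was 0.06. For Mrpl36, a mitochondrial ribosomal protein gene, the log2 fold change was 0.75 (adjusted p = 0.0978). Exons of 15 members overlap those of another gene in the count files, for 14 of them on the opposite strand, and the counting was not stated to use strand. Among these, the largest overlaps are those of Ndufb6 with Smim27 (39.0% of the member's exon bases) and Ndufa13 with Tssk6 (30.0%). Exons of Ndufaf2 overlap those of the non-coding B230220B15Rik, which is not in the count files, over 1955 bases (65.6%). These shares are over the exons of all transcripts, whereas the exons of protein-coding Ndufaf2 transcripts cover 755 bases. The values of Ndufb6, Ndufa13 and Ndufaf2 are therefore uncertain.

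The first comparison asked how the members differ between KO cells and control cells, with the 7 KO libraries as 1 group. Of the 45 members tested, 18 were higher in KO cells (40%) and 0 were lower, where 11.9% of the 15023 genes tested were higher and 10.7% were lower (edgeR's quasi-likelihood test, Benjamini-Hochberg adjustment over all genes tested, threshold 0.1). The log2 fold change was above 0 for 39 members, with a median of 0.54 beside 0.06 over all genes tested. In 22 members (48.9%) every KO library was above both control libraries, which held for 16.9% of all genes tested. With total counts in place of TMM factors, where the median of all genes was -0.04, 12 members were higher and 0 lower. In that fit 23.0% of all genes were called in either direction, against 22.6% with TMM factors. Fewer calls were made with 1 control library, which is then assumed to vary like the KO libraries: without control replicate 1 only Ndufa4 was called, and without control replicate 2 only Ndufa4 and Ndufs8, while 2.95% and 3.61% of all genes were called in either direction. The log2 fold change was still above 0 for 38 and 40 members. DESeq2 called 24 members, all higher, and 28.1% of all genes in either direction, against 22.6% with edgeR.

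**Figure D2:**
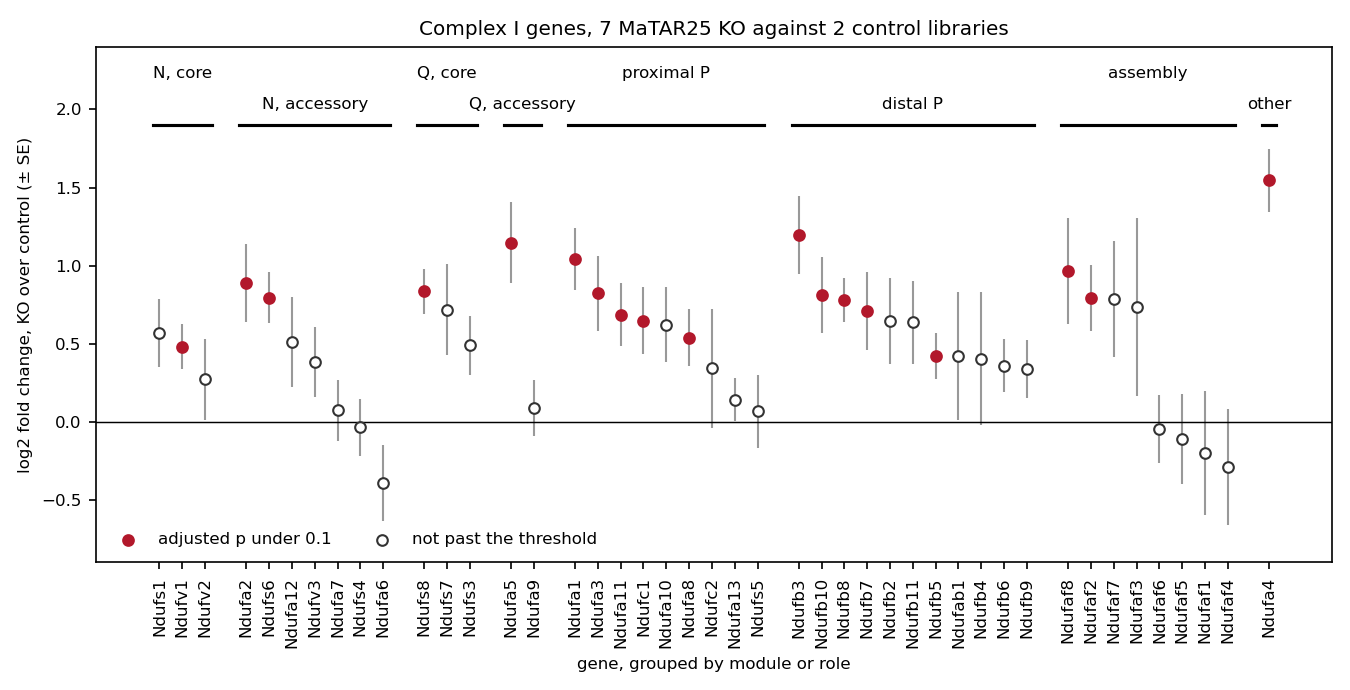
Log2 fold change of KO over control cells for 44 of the 45 members tested, with standard errors, grouped by module or role. Filled points passed an adjusted p of 0.1 (18 members, all above 0) and open points did not. Ndufa4 is highest at 1.55, and 4 of the 8 assembly factors lie below 0.

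Among the 7 nuclear-encoded core subunits, some of which carry the flavin and the iron-sulfur clusters, 2 rose in KO cells and all 7 fold changes were above 0 (median 0.49). Ndufs8, which holds iron-sulfur clusters of the Q module (chromosome 19, 3908863 to 3912774, minus strand), had 52.0 and 54.7 CPM in control, 101, 90.8 and 103 CPM in KO1 and 86.3, 96.7, 103 and 86.1 CPM in KO2. Every KO library of Ndufs8 was well above both control libraries, the log2 fold change was 0.84 ± 0.14 (SE) and the adjusted p was 0.00570. Ndufv1, the subunit that binds NADH and the flavin, had 105 and 113 CPM in control, 154, 167 and 148 CPM in KO1 and 125, 159, 163 and 149.5 CPM in KO2. Here too the groups did not overlap (log2 fold change 0.48 ± 0.14, adjusted p = 0.0506). A two-sided exact permutation test on log2(CPM + 1) gave p = 0.0278 for either gene, and with 36 ways to split the libraries it can go no lower.

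The other core subunits described here did not pass the threshold. Ndufs1, the largest iron-sulfur protein of the N module, had 90.4 and 90.5 CPM in control, 137, 151 and 165 CPM in KO1 and 117, 90.1, 150.4 and 128 CPM in KO2. Only KO2 replicate 2 lay at the control level (log2 fold change 0.57 ± 0.22, adjusted p = 0.106). Ndufs3 had 39.1 and 37.4 CPM in control, 49.8, 43.0 and 50.2 CPM in KO1 and 63.4, 46.2, 63.6 and 60.1 CPM in KO2. Its groups did not overlap, yet the adjusted p was 0.114 (log2 fold change 0.49 ± 0.19). Ndufs7, near the site of ubiquinone reduction, had 53.9 and 61.9 CPM in control, 119.6, 103 and 129.6 CPM in KO1 and 57.4, 95.9, 92.2 and 69.6 CPM in KO2. KO2 replicate 1 lay between the control libraries (log2 fold change 0.72 ± 0.29, adjusted p = 0.125). Ndufv2, of the N module, had 73.6 and 68.8 CPM in control, 104, 99.5 and 107 CPM in KO1 and 72.1, 69.1, 96.0 and 54.2 CPM in KO2. Its KO2 libraries lay on both sides of the controls, with a log2 fold change of 0.27 ± 0.26 (adjusted p = 0.507).

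The 29 accessory subunits rose in 13 cases and fell in none, with a median log2 fold change of 0.54. By module, counting core and accessory subunits together, 3 of 10 N module genes, 2 of 6 Q module genes and 10 of 20 nuclear-encoded P module genes rose, with median log2 fold changes of 0.43, 0.60 and 0.63. No difference between modules was tested. All 20 P module genes had a fold change above 0. The largest rises of the accessory subunits were those of Ndufb3, Ndufa5 and Ndufa1.

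Ndufb3, a distal P module subunit (chromosome 1, 58586384 to 58595964, plus strand), had 27.2 and 29.9 CPM in control, 60.6, 73.7 and 87.9 CPM in KO1 and 47.0, 52.1, 76.2 and 61.0 CPM in KO2. Every KO library was far above both controls (log2 fold change 1.2 ± 0.25, adjusted p = 0.0124), though 14.6% of its 50-base stretches occur elsewhere in the genome. Ndufa5, at the Q module, had 16.9 and 19.2 CPM in control, 41.7, 38.7 and 50.7 CPM in KO1 and 31.9, 50.5, 39.0 and 27.5 CPM in KO2. Its lowest KO libraries, KO2 replicates 4 and 1, were still above both controls (log2 fold change 1.15 ± 0.26, adjusted p = 0.0163). Ndufa1, of the proximal P module (chromosome X, 37187588 to 37191163, minus strand), had 25.2 and 25.9 CPM in control, 53.0, 53.3 and 61.2 CPM in KO1 and 42.1, 64.3, 51.5 and 43.3 CPM in KO2. The libraries of each group lay close together compared with the distance between groups (log2 fold change 1.04 ± 0.20, adjusted p = 0.00904).

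The other 10 accessory subunits that rose did so by 0.42 to 0.89 on the log2 scale. They were Ndufa2 and Ndufs6 of the N module, Ndufa3, Ndufa8, Ndufa11 and Ndufc1 of the proximal P module, and Ndufb5, Ndufb7, Ndufb8 and Ndufb10 of the distal P module. Ndufb8 had 51.3 and 53.0 CPM in control and 83.7 to 101 CPM in KO (log2 fold change 0.78 ± 0.14, adjusted p = 0.00696). Ndufs6, whose promoter is printed above, had 28.2 and 29.8 CPM in control and 40.6 to 56.9 CPM in KO (median 52.5, log2 fold change 0.80 ± 0.17, adjusted p = 0.0123). The control libraries of Ndufc1 lay further apart, with 18.2 and 29.0 CPM against 31.1 to 43.4 CPM in KO. At the other end, the smallest differences were those of Ndufs4, an N module subunit, Ndufs5 and Ndufa7. Ndufs4 had 49.9 and 52.0 CPM in control, 51.4, 48.3 and 57.1 CPM in KO1 and 35.7, 51.7, 47.8 and 56.2 CPM in KO2 (log2 fold change -0.03 ± 0.18, adjusted p = 0.919). The control libraries lay inside the range of the KO libraries. Ndufs5 had 16.1 and 18.1 CPM in control, 17.0, 14.9 and 17.1 CPM in KO1 and 17.3, 25.3, 19.2 and 14.8 CPM in KO2 (0.07 ± 0.23). Ndufa7 had 60.9 and 62.1 CPM in control, 64.2, 65.6 and 68.3 CPM in KO1 and 76.6, 53.9, 76.4 and 47.8 CPM in KO2 (0.07 ± 0.19). In both genes, too, the controls lay within the KO range.

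**Figure D3:**
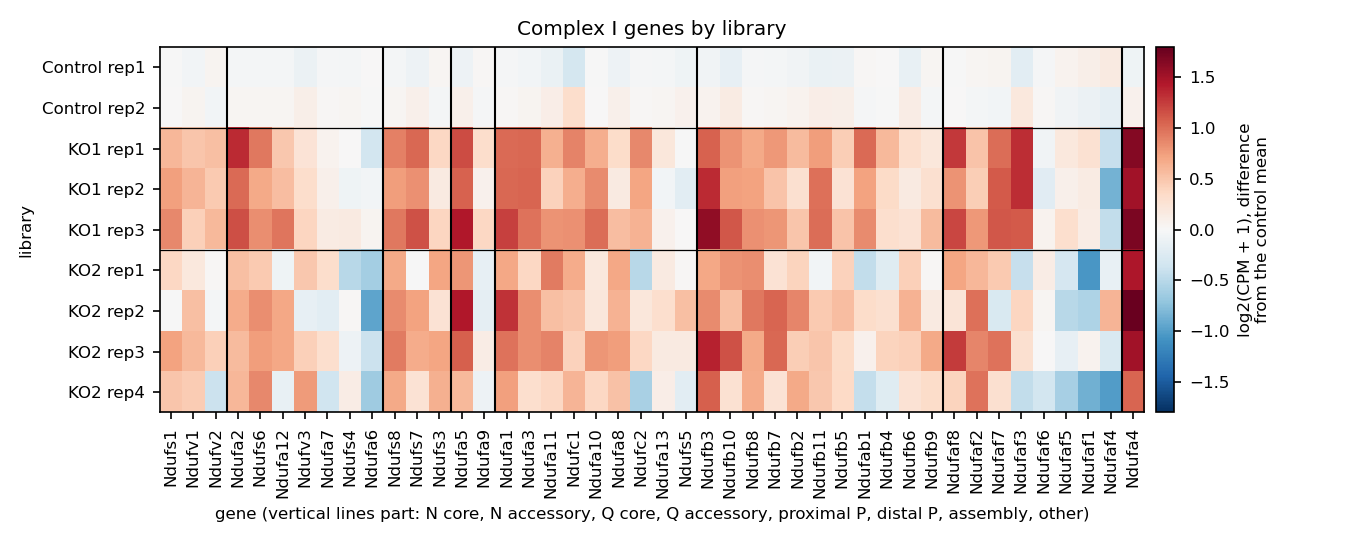
Difference of each library from the mean of the control libraries, on the log2(CPM + 1) scale, for 44 of the 45 members tested. Red is above and blue below the control mean, columns are ordered as in the plot of fold changes, and rows are libraries. Ndufa4 is above the control mean in all 7 KO libraries, while Ndufa6 and several assembly factors are below it in KO2.

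The assembly factors did not move as one. In KO cells 2 of the 8 rose (25%), and 4 had a fold change above 0 (median 0.34). Ndufaf2, which acts late when the N module joins, had 16.0 and 15.2 CPM in control, 22.7, 21.6 and 27.5 CPM in KO1 and 24.2, 31.8, 29.4 and 31.6 CPM in KO2. All KO libraries were above the controls (log2 fold change 0.79 ± 0.21, adjusted p = 0.0320), within the limit set by its overlap with B230220B15Rik. Ndufaf8, a partner of Ndufaf5, had 8.67 and 8.76 CPM in control, 22.4, 16.1 and 21.3 CPM in KO1 and 14.9, 10.4, 22.2 and 11.8 CPM in KO2. Again the groups did not overlap, but the KO libraries spread over more than a factor of 2 (log2 fold change 0.97 ± 0.34, adjusted p = 0.0831).

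The remaining 6 assembly factors did not pass the threshold. Ndufaf7, a methyltransferase of the mitochondrial matrix, had 15.8 and 14.6 CPM in control, 31.6, 33.7 and 34.2 CPM in KO1 and 21.4, 12.4, 30.9 and 18.7 CPM in KO2, with only KO2 replicate 2 below the controls (log2 fold change 0.79 ± 0.37, adjusted p = 0.182). Ndufaf3 and Ndufaf4 act together early in the assembly of the Q module. Ndufaf3 had 6.15 and 8.36 CPM in control, 19.5, 19.6 and 16.6 CPM in KO1 and 5.13, 9.69, 9.02 and 5.03 CPM in KO2 (log2 fold change 0.74 ± 0.57, adjusted p = 0.413). Ndufaf4 had 36.8 and 29.2 CPM in control, 24.4, 17.8 and 23.9 CPM in KO1 and 29.8, 50.8, 26.9 and 15.8 CPM in KO2 (log2 fold change -0.29 ± 0.37, adjusted p = 0.639). The pair thus differed in pattern: Ndufaf3 was high in KO1, whereas 6 of the 7 KO libraries were below both control libraries or between them for Ndufaf4. Ndufaf1, a member of the complex that builds the membrane arm, had 14.9 and 12.6 CPM in control, 16.7, 15.3 and 15.1 CPM in KO1 and 6.08, 9.01, 14.4 and 7.03 CPM in KO2 (log2 fold change -0.20 ± 0.40, adjusted p = 0.767). Ndufaf5, which hydroxylates Ndufs7, had 14.3 and 13.1 CPM in control, 15.7, 14.7 and 17.2 CPM in KO1 and 11.0, 9.39, 12.2 and 8.71 CPM in KO2 (log2 fold change -0.11 ± 0.29, adjusted p = 0.829). Both genes were above the controls in every KO1 library and, but for KO2 replicate 3 of Ndufaf1, below them in KO2. Ndufaf6 was level, with 10.7 and 11.1 CPM in control, 10.4, 9.29 and 11.4 CPM in KO1 and 12.0, 11.2, 11.0 and 8.48 CPM in KO2 (log2 fold change -0.05 ± 0.22, adjusted p = 0.910).

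Subunits and assembly factors were then set side by side within each library. On the log2(CPM + 1) scale, the median difference from the control mean was 0.59, 0.53 and 0.71 over the subunits of the KO1 libraries and 0.39, 0.30 and 0.55 over their assembly factors. In KO2 it was 0.34, 0.54, 0.58 and 0.35 over the subunits and -7.26e-05, 0.14, 0.18 and -0.38 over the assembly factors. The subunit median was therefore above the assembly factor median in all 7 KO libraries, by 0.16 to 0.23 in KO1 and by 0.34 to 0.73 in KO2, beside -0.08 and 0.08 in the control libraries. In the fit of KO against control the medians were 0.53 and 0.34. With 8 assembly factors of lower level this is a description and no test was made. Summed over the 36 subunits, the level was 1912 and 1995 CPM in control, 2808 to 3138 CPM in KO1 and 2292 to 2909 CPM in KO2, or 0.202 and 0.210% of the gene counts in control against 0.224 to 0.301% in KO.

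**Figure D4:**
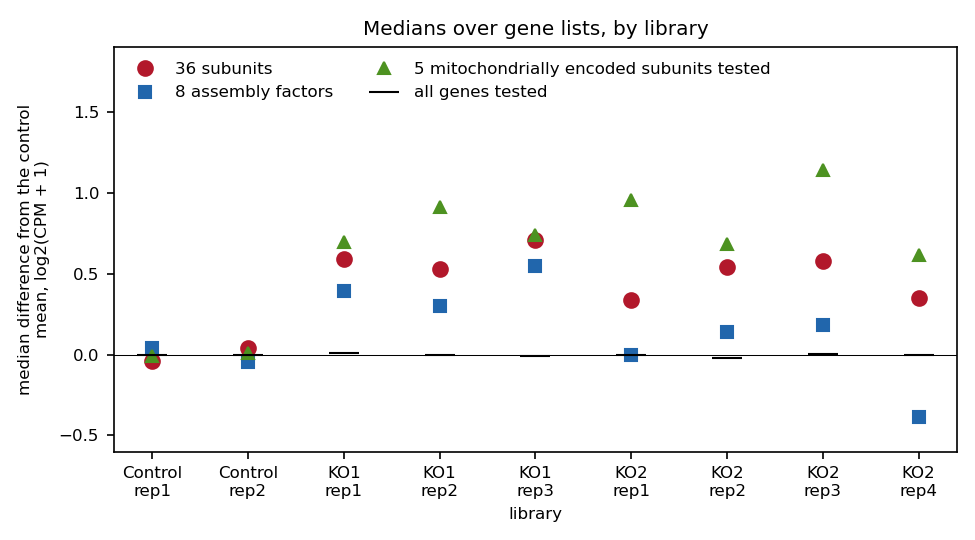
Median difference from the control mean in each library, on the log2(CPM + 1) scale, for the 36 subunits, the 8 assembly factors, the 5 mitochondrially encoded subunits tested and all genes tested. In each KO library the subunits lie above the assembly factors, and the median of all genes stays within 0.022 of 0.

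Ndufa4, first described with complex I and now placed in cytochrome c oxidase, had 94.8 and 106 CPM in control, 319, 288 and 327 CPM in KO1 and 278, 348, 288 and 209 CPM in KO2. No KO library came near the controls, and the log2 fold change was 1.55 ± 0.20 (adjusted p = 0.00200). The gene lies on chromosome 6 from 11900292 to 11907497, minus strand, and 4.25% of its 50-base stretches occur elsewhere in the genome.

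The clones were next compared with control one by one in a 3-group fit, and both comparisons share the same 2 control libraries. In KO1, 24 of the 45 members were higher and 0 lower, beside 15.9% and 15.7% of all genes. In KO2, 20 members were higher, beside 16.5%, and 1 was lower, beside 15% of all genes. Among subunits, 19 of 36 were higher in KO1, and 18 were higher and 1 lower in KO2. Among assembly factors, 4 of 8 were higher in KO1 (Ndufaf2, Ndufaf3, Ndufaf7 and Ndufaf8) and 1 in KO2 (Ndufaf2), with median log2 fold changes of 0.42 and -0.02. With 1 control library, which is then assumed to vary like the KO libraries, fewer members were called in KO1 and in KO2. The share of all genes called in these fits is not given here.

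The member that was lower in KO2 was Ndufa6, an N module subunit. It had 50.8 and 50.2 CPM in control, 39.9, 48.6 and 52.1 CPM in KO1 and 32.8, 25.7, 38.4 and 32.0 CPM in KO2. All 4 KO2 libraries were below both controls and below all KO1 libraries. The log2 fold change against control was -0.65 ± 0.19 in KO2 (adjusted p = 0.0344) and -0.11 ± 0.20 in KO1 (adjusted p = 0.727).

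The difference between the clones was tested directly. KO2 was lower than KO1 in 9 of the 45 members (20.0%) and higher in none, where 19.6% of all genes differed in either direction and 9.43% were lower in KO2. The 3 smallest adjusted p belonged to Ndufa2, Ndufaf3 and Ndufab1. Ndufa2, an N module subunit, had 46.4 and 49.1 CPM in control, 123, 97.7 and 108 CPM in KO1 and 70.1, 76.5, 71.3 and 72.9 CPM in KO2, so that the 3 groups did not overlap (KO2 against KO1, log2 fold change -0.59 ± 0.12, adjusted p = 0.0194). Ndufaf3, with the values given above, differed most in size, by -1.36 ± 0.29 (adjusted p = 0.0201). Its KO2 libraries were spread around the control level and its KO1 libraries were all well above it.

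Ndufab1, the mitochondrial acyl carrier protein, which is both a subunit and a carrier in fatty acid and lipoate synthesis, had 22.2 and 21.7 CPM in control, 45.7, 36.9 and 40.4 CPM in KO1 and 15.9, 27.8, 23.2 and 16.0 CPM in KO2. Its KO1 libraries were high and its KO2 libraries lay on both sides of the controls (KO2 against KO1, -0.98 ± 0.22, adjusted p = 0.0234). The other differences were -0.82 for Ndufc2, -0.62 for Ndufaf5, -0.58 for Ndufs7, -0.56 for Ndufb11, -0.54 for Ndufa6 and -0.51 for Ndufv2, with adjusted p of 0.0571 to 0.0957. The count of 9 depended on single libraries. It was 18 without KO2 replicate 3, 3 without KO1 replicate 2 or 3, and 5 without KO1 replicate 1 or KO2 replicate 1 or 4. The share of all genes called without these libraries is not given here, so whether the members moved more than other genes cannot be told. KO2 replicate 3 was the KO2 library with the highest summed level of the subunits (2909 CPM, against 2292 to 2526 CPM in the other KO2 libraries).

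**Figure D5:**
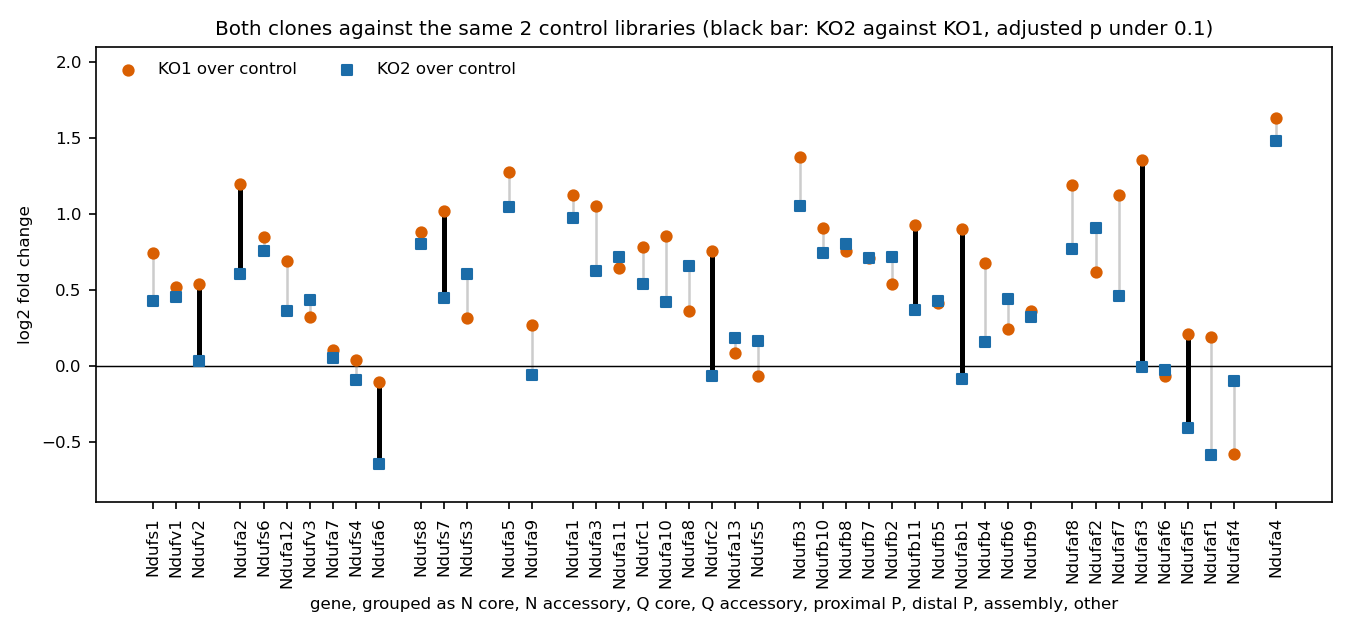
Log2 fold change of KO1 (circles) and KO2 (squares) against the same 2 control libraries, for 44 of the 45 members tested. Black bars join the 9 members that differed between the clones at an adjusted p under 0.1, and in each of them KO2 is the lower.

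The subunits encoded by mitochondrial DNA were measured in the same libraries. Of 7 genes, 5 were tested and 4 were higher in KO cells: mt-Nd1 (log2 fold change 0.99 ± 0.24, adjusted p = 0.0218), mt-Nd2 (0.94 ± 0.25, adjusted p = 0.0300), mt-Nd6 (0.96 ± 0.21, adjusted p = 0.0144) and mt-Nd5 (0.86 ± 0.22, adjusted p = 0.0271). For mt-Nd1 the level was 1150.3 and 1010.3 CPM in control and 1730.3 to 3247 CPM in KO, with the highest value in KO2 replicate 3. mt-Nd4 had 517 and 523 CPM in control and 532 to 673 CPM in KO, and did not pass the threshold (0.23 ± 0.13, adjusted p = 0.273). For mt-Nd4, 62.2% of the 50-base stretches also occur in the nuclear genome or elsewhere in mitochondrial DNA. That share was 99.0% for mt-Nd3 and 100% for mt-Nd4l, and neither gene had more than 1 count in any library.

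Other genes of complex I biology were tested in the same fit. Of 12 further assembly factors listed, 11 matched a gene and were tested, and only Acad9, part of the assembly complex of the membrane arm, was higher in KO cells, with 31.2 and 38.3 CPM in control and 41.6 to 61.3 CPM in KO (log2 fold change 0.60 ± 0.19, adjusted p = 0.0611). That is 9.09% of these 11 genes, beside 11.9% of all genes tested, and their median was 0.18. Of 12 regulators of mitochondrial biogenesis, Esrra, which encodes an estrogen-related receptor, was the only one called (8.33%, beside 11.9% of all genes higher). It had 46.6 and 41.9 CPM in control and 56.4 to 79.8 CPM in KO (0.61 ± 0.16, adjusted p = 0.0319). Yy1, whose core letters were found in the promoters above, had 144 and 139 CPM in control and 90.03 to 126 CPM in KO, below both controls in every KO library (-0.34 ± 0.14, adjusted p = 0.146), and it was lower in KO1 in the 3-group fit described above (-0.47 ± 0.14, adjusted p = 0.0410). In that fit Esrra (0.54, adjusted p = 0.0504), Tfam (0.50, adjusted p = 0.0871) and Ppargc1a were higher in KO1, the last with 0 CPM in both control libraries and 0.135 to 1.96 CPM in KO1. In KO2 Esrra was higher (0.66, adjusted p = 0.0216) and Tfb1m lower (-1.005, adjusted p = 0.0252). Of all genes, 15.9% were higher and 15.7% lower in KO1, and 16.5% and 15% in KO2. Nrf1 and Gabpa had log2 fold changes of 0.03 ± 0.14 and 0.13 ± 0.20 (adjusted p = 0.911 and 0.707).

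ChIRP-seq peaks of MaTAR25, DNA recovered with the RNA by complementary oligonucleotides, were assigned to the gene with the nearest promoter. With the whole pool of oligonucleotides in 4T1 cells, 20 of the 45 members had a peak (44.4%, exact 95% binomial interval 29.6 to 60.0%), against 63.3% of the 12542 protein-coding genes tested. The share was 47.2% of the subunits and 25% of the assembly factors. Members are short genes, with a median span of 8379 bases against 23594.5 for the protein-coding genes tested, and the part of gene length in this difference was not tested. Of the 48 peaks, 28 were intergenic, and the 13 assigned to Ndufa4 lay 90288 bases or more from its start. Ndufs3 had a peak within 1 kb of an annotated start, at -569 bases, with a score of 120.9, which ranked 12836 of 76806 peaks. That peak (90902853 to 90903658) lies inside the gene (chromosome 2, 90894634 to 90904827, minus strand). The start it was measured from is therefore not the outermost start of the gene. Ndufs3 did not pass the threshold between KO and control cells. In MMTV-Neu-NDL cells, whose labels give the genotype MMTV-PyMT, 21 members had a peak (46.7%, against 61.7%). Each peak list covers all replicates of its pulldown, so the interval holds no spread between replicates. It takes the members as independent draws of equal chance, although they are a fixed list of shorter genes, and is no test against other genes.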

How the data were processed

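The deposited RNA-seq files hold raw counts of reads on each gene, which the authors made by mapping single-end reads to GRCm38 with STAR and counting on GENCODE vM5 with HTSeq, without normalization. The deposited ChIRP-seq values are HOMER peak scores, of unstated scaling, from 1 list for all replicates of a pulldown, called against the Ppib pulldown. Both are per the paper and the file headers. The 5 rows for reads on no gene were left out, and each gene of KO2 replicate 2, listed 3 times, was used once.

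Counts were tested in R 4.3.3 with edgeR 4.0.16 (TMM, filterByExpr, quasi-likelihood test, Benjamini-Hochberg over 15023 genes, threshold 0.1), with KO1 and KO2 as 1 group or in a 3-group fit. DESeq2 1.42.0, other scalings and filters, a replicate block and leaving out each library were alternatives. For core subunits an exact permutation test of log2(CPM + 1) was added. Standard errors (±) are the absolute log2 fold change divided by the square root of the quasi-likelihood F statistic. The fits were tested on simulated data. Symbols, positions and exon lengths are from GENCODE vM21, promoter sequences from RefSeq, and the 50-base stretches were matched exactly to the GRCm38 chromosomes (Python 3.11.15, pandas 2.3.3, numba 0.67.0). The members and gene lists were chosen with earlier results of these data known. Named with full values were all assembly factors, Ndufa4 and Ndufa4l2, the core subunits (1 is not reported here by name), and the 3 accessory subunits with the largest rise, the 3 with the smallest change and the 3 members with the smallest adjusted p between the clones. Further members complete their module or were chosen after their values were seen.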

Additional observations from a re-analysis of the deposited data

Results flagged for a closer look

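Within the 7 KO libraries, 2 of the 50 sets of libraries examined held a value far from the rest, where chance gives about 1 in 20. Ndufaf4 had 50.8 CPM in KO2 replicate 2 against 15.8 to 29.8 CPM in the other KO libraries. Ndufs5 had 25.3 CPM in the same library against 14.8 to 19.2 CPM.

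The effect differed between the clones in 9 members, by edgeR's test of KO2 against KO1 in the 3-group fit. These are 20.0% of the 45 members tested, where 19.6% of all genes tested differed in either direction. The log2 fold change of KO2 against KO1 was -1.36 for Ndufaf3 (adjusted p = 0.0201), -0.98 for Ndufab1 (adjusted p = 0.0234), -0.82 for Ndufc2 (adjusted p = 0.0592), -0.62 for Ndufaf5 (adjusted p = 0.0677) and -0.59 for Ndufa2 (adjusted p = 0.0194). It was -0.58 for Ndufs7 (adjusted p = 0.0815), -0.56 for Ndufb11 (adjusted p = 0.0571), -0.54 for Ndufa6 (adjusted p = 0.0664) and -0.51 for Ndufv2 (adjusted p = 0.0957). Ndufa2, Ndufab1 and Ndufaf3 were called without each library in turn.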

How the results depend on the processing

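Between KO and control 18 members were called, with 22.6% of all genes. With the replicate block they were 9 (8 of the 15 subunits, 0 of the 2 assembly factors), with 13.0% of all genes. With a KO library left out they were 13 to 22 (11 to 18 subunits, 1 to 3 assembly factors), with 18.8 to 26.4% of all genes. Without a control library there were fewer, as given above. The 2 assembly factors became 1 with total counts, with no filter on low counts and at a threshold of 0.05. Without a KO library the 24 calls of KO1 were 19 to 27 and the 21 of KO2 were 16 to 22, and both were fewer without a control library. The 9 between the clones were 3 to 18 with a library left out. The share of all genes called in these fits is not given here. With only the libraries compared the calls were 35 for KO1, 13 for KO2 and 5 between the clones. At 0.05 the calls of KO2 were 13, and those between the clones were 3 at 0.05 and 4 with the replicate block. For these settings, too, the share of all genes called is not given. The cause was not tested. Libraries with the same replicate number had correlations of -0.15 to 0.04, so the numbers do not pair them. With a library left out the median log2 fold change was 0.47 to 0.57 for subunits and 0.26 to 0.38 for assembly factors, and their difference 0.14 to 0.27. The 20 members with a ChIRP peak were 10 at a peak score of at least 100 (22.2% against 28.2% of protein-coding genes tested), 10 in both the odd-pool and the even-pool list (22.2% against 41.3%) and 2 within 1 kb of an annotated start (4.44% against 14.8%). Over the 24 named values of KO against control and their alternatives, 336 of 384 kept direction and side of the threshold, 27 lost the call and 14 gained it. The other 7, of 4 members with small changes that were not called under any of these settings, changed sign: with total counts Ndufa7 was at -0.0222 and Ndufs5 at -0.0323, and with a library left out Ndufaf6 ran from -0.0789 to 0.000189, Ndufs4 from -0.0695 to 0.0330 and Ndufs5 from -0.0377 to 0.162. With no filter on low counts 12 members were higher and Ndufa4l2 was lower. Where a control library is left out, the other is assumed to vary like the KO libraries.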
